A study of Mus musculus with 22 samples.

Results

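RNA bound to tagged ribosomes in the cell body layer of hippocampal area CA1 was compared with the RNA that the pulldown left behind. The comparison takes the 4 soma immunoprecipitates of the study and its 1 soma supernatant, each with paired-end and single-end data, so that 10 of the 22 samples of the series, or 5 of its 11 libraries, enter it. All libraries came from mice of strain C57BL/6 that were Camk2a-tTA/tetO-EGFP-L10a double transgenics: the promoter of Camk2a, which is active in excitatory forebrain neurons, drives the transactivator tTA, and tTA switches on ribosomal protein L10a fused to EGFP. The pulldown used the antibody HtzGFP-19C8 against the GFP tag. Home cage soma immunoprecipitates 1 and 2 came from mice left in their cages, and fear conditioned soma immunoprecipitates 1 and 2 and fear conditioned soma supernatant 2 from mice after fear conditioning, in which an animal learns to fear what came with a shock. No home cage soma supernatant was analysed here, so behaviour and fraction are not crossed in the soma. The immunoprecipitates are called pulldowns below. The labels give no ages, no pooling and no statement that libraries came from separate animals, so the p-values measure the spread between these samples.

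A tagged ribosome carries the mRNA it is translating, so a pulldown from a mixed tissue samples the translated RNA of the cells in which the transgene is on. The supernatant holds everything else: RNA free of ribosomes in the tagged neurons, nuclear RNA, RNA on ribosomes without a tag, and the RNA of interneurons, astrocytes, oligodendrocytes, microglia and vessels. In a comparison of this kind, transcripts of the tagged cell type are known to be enriched in the pulldown and transcripts of the other cells to be depleted from it. In bulk samples like these, fewer cells of a type and less RNA per cell cannot be told apart.

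The values are FPKM, fragments scaled by transcript length and library size, for the coding part of each transcript, which the deposited annotation extends at both ends into the untranslated regions. Each library was divided by 1 scaling factor, and differences are on log2(scaled FPKM + 1), which understates the change of low genes. A fitted difference, or a log2 difference with an SE, is adjusted for behaviour over all 11 libraries. It can therefore depart from what the listed soma values alone give. Values and counts are those of the paired-end run unless the single-end run is named. The 5 paired-end soma libraries held an estimated 13.4 to 29.9 M fragments and the single-end runs 2.32 to 6.93 M reads. Of the 29848 genes in the tables, 2875 reached a scaled FPKM of 1 in the average of pulldowns and supernatant and were tested. The pulldowns were sparse: 36.9% and 48.5% of the tested genes were listed at 0 in home cage pulldowns 1 and 2, 11.3% and 9.18% in fear conditioned pulldowns 1 and 2, and 5.08% in the supernatant. Rpsa alone took 74.0% of the summed FPKM of home cage pulldown 2. Over the tested genes (genes are no replicates of each other), Pearson's r was 0.01 to 0.24 between pairs of pulldowns, 0.42 between fear conditioned pulldown 2 and the supernatant of the same name, and 0.39 to 0.70 between both runs of 1 library. Only 217 of the 2875 genes reached a scaled FPKM of 1 in all 4 pulldowns, and 1068 reached it in only 1 pulldown.

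Markers of the CA1 pyramidal neuron were present in both fractions. Camk2a, the alpha subunit of the calcium-dependent kinase whose promoter drives the transgene, had scaled FPKM of 29.1 and 10.9 in home cage pulldowns 1 and 2, 26.2 and 51.5 in fear conditioned pulldowns 1 and 2, and 46.0 in the supernatant. The supernatant lay within the range of the pulldowns, with 1 above it and 3 below it. Wfs1, a marker of CA1 against the other fields, had 0.411, 0, 1.58 and 4.75 in the pulldowns in the same order and 2.70 in the supernatant. Slc17a7, the vesicular glutamate transporter of excitatory neurons, had 3.26, 0.166, 6.67 and 1.9 against 3.28. For both genes the supernatant lay within the range of the pulldowns. The single-end values of Wfs1 were 0.969, 0.327, 12.8 and 8.70 in the pulldowns and 16.4 in the supernatant, all 4 below. Hprt, a housekeeping gene, was listed at 0 in home cage pulldown 1 and reached 0.403, 0.424 and 3.14 in the others against 1.6 in the supernatant, and Actb, the cytoplasmic actin, ranged from 1.04 to 61.7 against 21.3. Rpl10a, the gene of the tagged protein, had 19.8, 31.1, 3.16 and 9.07 against 2.62, above the supernatant in 4 of 4 pulldowns. In the single-end run it was above in 3 of 4, with fear conditioned pulldown 1 at 3.39 against 7.18 in the supernatant. The transgene also encodes L10a, and whether its transcript adds to this row was not tested.

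Summed over the 22 CA1 pyramidal markers, the level was 54.0 to 195.6 in the pulldowns and 121.4 in the supernatant; in the single-end run it was 130.4 to 329.9 in the pulldowns and 370.5 in the supernatant, above all 4. Of the 13 members tested, 2 had a positive fitted difference and 11 a negative one, with a median of -0.76 against 0.10 over all tested genes, and no member passed the test. Over all 2875 tested genes, 1536 had a positive fitted difference and 1339 a negative one, the background for the splits of this and the later lists. This median was -0.33 without fear conditioned pulldown 1 and -1.34 without fear conditioned pulldown 2. Chn1, a signalling protein of neuronal growth, had 2.56, 3.17, 8.83 and 30.4 in the pulldowns and 17.8 in the supernatant. Neurod6, a transcription factor of pyramidal neurons, had 0.497, 6.51, 6.97 and 48.8 against 4.03. Itpka, an inositol trisphosphate kinase of dendritic spines, had 32.8, 0, 0.902 and 2.61 against 9.59. For each of these genes the pulldowns lay on both sides of the supernatant. Markers of other hippocampal cells were low in both fractions: the 9 CA3 and CA2 genes with a row summed to at most 1.02 in a pulldown and to 3.79 in the supernatant, and the 10 dentate granule cell genes to at most 6.20 and to 0.725.

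**Figure D1:**
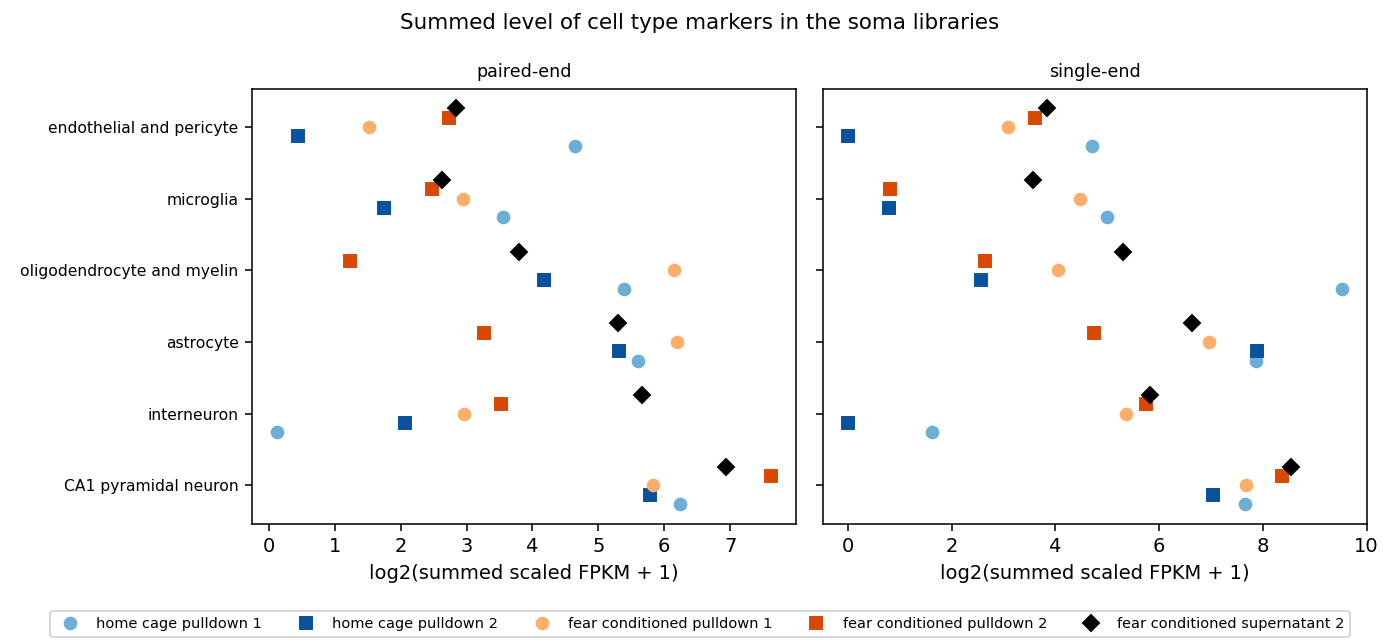
Summed scaled FPKM, as log2(sum + 1), of 6 marker lists (vertical axis) in the 4 soma pulldowns and the soma supernatant (symbols; 1 symbol per library), for the paired-end (left) and the single-end run (right). The interneuron sum of the paired-end supernatant (49.6) is above all 4 pulldowns, while for the other 5 lists of that run the supernatant lies within the range of the pulldowns.

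Interneuron transcripts, from cells in which the Camk2a promoter is largely silent, were lower in the paired-end pulldowns than in the supernatant, though no member passed the test. The 18 interneuron markers summed to 0.0876, 3.20, 6.80 and 10.5 in the 4 pulldowns and to 49.6 in the supernatant, and 9 to 17 of them were listed at 0 in a pulldown and 3 in the supernatant. Only 3 members were tested; the supernatant values of Sst and Npy rested on an estimated 256 and 148 fragments. Sst, the neuropeptide somatostatin (mm9, chromosome 16, 23889667 to 23890930), had scaled FPKM of 0, 0, 0.463 and 5.57 in the pulldowns (1.51 ± 2.72, SD, n = 4) and 19.3 in the supernatant. Npy, neuropeptide Y (chromosome 6, 49772728 to 49779504), had 0, 0, 2.53 and 0 (0.633 ± 1.27, SD, n = 4) and 12.3. Cck, cholecystokinin, which pyramidal cells also make at a lower level, had 0, 3.20, 1.57 and 4.03 (2.20 ± 1.79, SD, n = 4) and 14.4. The supernatant was above all 4 pulldowns for each of the 3 genes. Npy, with a pulldown mean of 0.633, reached the expression minimum only through the supernatant, so it had to be lower in the pulldowns. The fitted log2 differences were -3.11 (SE 1.16), -2.42 (SE 1.15) and -2.21 (SE 1.10), and none passed, with limma adjusted p of 0.391, 0.71 and 0.786. In the single-end run the supernatant was again above every pulldown for Sst (27.8 against at most 4.03) and Npy (5.81 against 0 in all 4), but not for Cck, which was at 39.3 and 45.2 in the fear conditioned pulldowns and at 8.79 in the supernatant. The single-end sum of the list was 55.8 in the supernatant and 52.7 in fear conditioned pulldown 2, where Cck made up most of it. Gad1, the enzyme that makes the transmitter GABA, was too low to be tested, at 0, 0, 0.221 and 0.142 in the pulldowns and 1.32 in the supernatant.

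The summed glial markers lay on both sides of the supernatant. The 22 astrocyte markers summed to 47.4, 38.8, 72.6 and 8.64 in the pulldowns and to 38.4 in the supernatant, so that fear conditioned pulldown 2 was below the supernatant and the other 3 were above it. Of 10 members tested, 9 had a negative fitted difference (median -0.63), and 4, Glul, Apoe, Ndrg2 and Cst3, were below the supernatant in all 4 pulldowns (40%), 3 of them in both runs (30%, against 9.39% of all tested genes). The median moved to -1.21 without fear conditioned pulldown 1 and to -0.14 without fear conditioned pulldown 2. With the values of the remaining 3′ UTR it was 0.28 (8 members). Over all tested genes, 611 (21.3%) were below in all 4 pulldowns by any amount and 143 (4.97%) above; this count by any amount was made after the values were seen. Glul, the glutamine synthetase of astrocytes, had 2.34, 1.25, 3.18 and 1.49 (2.06 ± 0.877, SD, n = 4) against 5.15. Slc1a2, the main astrocytic glutamate transporter, had 5.4, 2.79, 6.66 and 0.372 against 4.59, and in the single-end run it was below in all 4 (0.281 to 5.08 against 6.35). Aldoc, a glycolytic enzyme of astrocytes, was at 43.6 in fear conditioned pulldown 1 and at 0, 0 and 0.268 in the others, against 4.32. Mt1, a metallothionein, was at 10.4 and 27.3 in the home cage pulldowns but at 0.758 and 1.57 in fear conditioned pulldowns 1 and 2, against 4.58. Gfap, the astrocytic filament protein, was under 0.6 in all 5 libraries.

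Myelin transcripts varied by library. Mbp, myelin basic protein, had 26.5, 3.73, 3.84 and 0.913 in the pulldowns and 5.93 in the supernatant. Only home cage pulldown 1 was above the supernatant for Mbp, and the 20 oligodendrocyte and myelin markers summed to 41.1, 17.2, 70.2 and 1.35 in the pulldowns against 13.0. Mobp and Mag, both of the myelin sheath, reached 1.38 and 8.38 in fear conditioned pulldown 1 and 2.42 and 0 in the supernatant. Microglial genes summed to 2.37 to 10.7 in the pulldowns and 5.17 in the supernatant, and C1qa, a complement subunit, was at most 0.0402 in a pulldown and 0.0505 in the supernatant. Endothelial and pericyte genes summed to 0.355 to 24.1 against 6.18. Ttr, the choroid plexus transcript, was at 16.6 in home cage pulldown 1 and at 1.05 or less in the other 4 libraries. The part of these cells in the differences given below was not tested.

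The test across all genes called genes that only the 1 supernatant library brought into the test. limma called 89 of the 2875 genes (3.1%) lower in the soma pulldowns than in the supernatant at an adjusted p under 0.05, and 0 (0%) higher; at an unadjusted p under 0.05 there were 222 lower (7.72%) and 7 higher (0.243%). With robust moderation limma called 63 lower and 0 higher. The supernatant had 1 library, which was assumed to vary like the other groups of the 11-library fit. The mean of the 4 pulldowns was under 1 in all 89 called genes (100%), against 19.1% of all tested genes, so each called gene reached the expression minimum only through the supernatant. Such genes had to be lower in the pulldowns, and the calls describe that library and are no support for a difference between the fractions. Of the 89 genes, 23 were listed at 0 in all 4 soma pulldowns, 87 were under a scaled FPKM of 1 in all 4, and 79 were under 1 in both dendrite supernatants of the study. The level in the soma supernatant was low, with a median of 3.11 and 5 genes at 10 or more. The single-end supernatant was above all 4 single-end pulldowns for 37 of the 89 genes and listed at 0 for 13, and 4 were also called there. With an expression minimum of 5 in place of 1, limma called 0 lower and 0 higher.

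**Figure D2:**
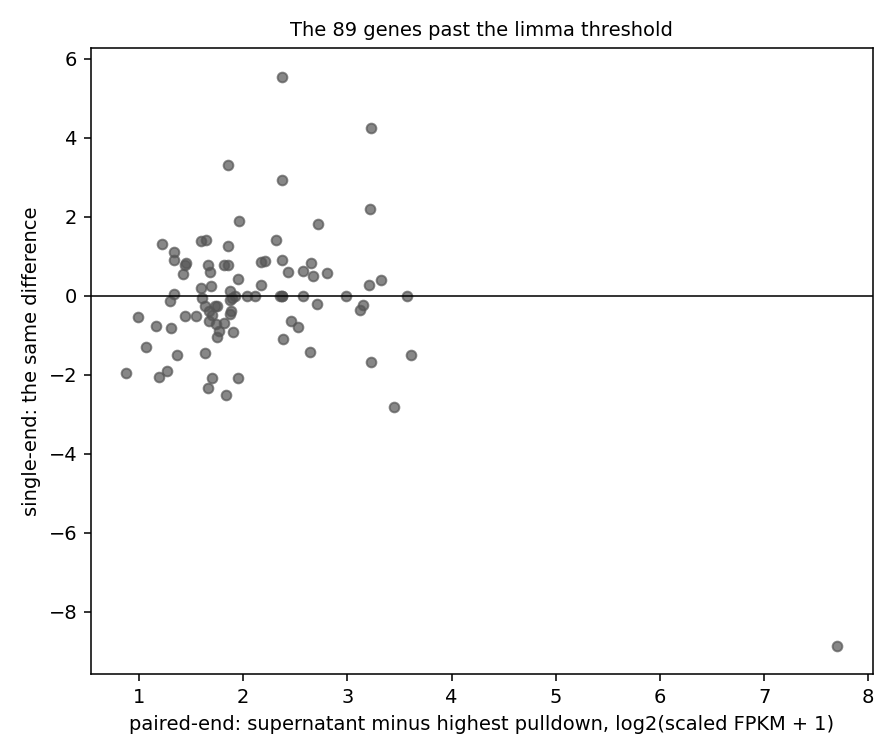
Each point is 1 of the 89 genes that limma called lower in the soma pulldowns. The horizontal axis is the supernatant minus the highest pulldown in the paired-end run and the vertical axis the same difference in the single-end run, both on log2(scaled FPKM + 1); the points spread on both sides of 0 in the single-end run, where 37 lie above it.

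The 5 called genes with a supernatant of 10 or more were Gm3168, Ccl27a, Nup188, Inhba and AK189601, named after their values were seen. Gm3168, a predicted gene, was at 207.5 in the paired-end supernatant and at 0 in all 4 paired-end pulldowns (log2 difference -8.24, SE 1.55, limma adjusted p = 0.0203). The listed values of Gm3168 alone give a mean difference of -7.70, without the adjustment for behaviour. In the single-end run Gm3168 was at 99041, 73586, 0 and 15287 in the pulldowns and 211.7 in the supernatant, the opposite order for 3 of 4 pulldowns. Ccl27a, a chemokine, was at 0, 0, 2.09 and 0.240 in the pulldowns and 25.8 in the supernatant, a log2 difference of -3.90 (SE 0.77, limma adjusted p = 0.0266). Its single-end values were 0, 0, 11.3 and 1.29 against 8.67, with fear conditioned pulldown 1 above the supernatant. Nup188, a nuclear pore component, Inhba, a subunit of activin, and AK189601, a noncoding transcript, are described with the dendrite below. Of the calls, 9 (10.1%) covered at most 300 bases, against 1.91% of all tested genes, and 13 (14.6%) had no coding sequence in the deposited annotation, against 5.84%.

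A count without a test asked which genes were on the same side in every pulldown. By at least 1 on the log2 scale, 24 genes (0.835%) were above the supernatant in all 4 pulldowns and 272 (9.46%) below; in both runs these were 10 (0.348%) and 48 (1.67%). Of the 272 genes below, 171 were listed at 0 in both home cage pulldowns. The expression minimum shapes these counts. In 549 tested genes (19.1%) the mean of the pulldowns was under 1, so they had to be lower on average. No pulldown reached 1 in 251 genes, and the supernatant did in all 251. In 527 of the 1068 genes with 1 pulldown at 1 or more, the supernatant was under 1. The same held for 355 of the 889 genes with 2 such pulldowns, 117 of the 450 with 3 and 36 of the 217 with 4. Such genes entered only through the pulldowns and had to be higher on average. The counts above and below are therefore no measure of a balance between the fractions. With 1 pulldown left out, and the scaling and the tested genes (2630 to 3171) set anew, the count above was 55 without home cage pulldown 1, 56 without home cage pulldown 2, 42 without fear conditioned pulldown 1 and 53 without fear conditioned pulldown 2, and the count below was 433 without fear conditioned pulldown 2. The median fitted difference of all tested genes was 0.10 with the scaling used, 0.49 with the FPKM as deposited and -0.52 with libraries set to equal sums, so the split of genes into higher and lower moves with the scaling.

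Among the genes above the supernatant in every pulldown and in both runs, at a mean of at least 10 in the pulldowns, 27 met the conditions for being named. The 10 with the largest fitted difference are given here, and none passed the limma test. For Mdm2, Ctse, Trp53inp1, A130040M12Rik, Arhgap11a, Rpl36, Gnb2l1 and Eprs the supernatant was under 1. These genes reached the expression minimum only through the pulldowns and had to be higher on average. Their values are therefore no support for a difference between the fractions. Mdm2, the ubiquitin ligase that degrades p53 (chromosome 10, 117125961 to 117147772), had scaled FPKM of 8.72, 456, 56.7 and 16.4 in home cage pulldowns 1 and 2 and fear conditioned pulldowns 1 and 2 (134 ± 215, SD, n = 4) and 0.168 in the supernatant, a log2 difference of 4.76 (SE 2.03, limma adjusted p = 0.585). Ctse, the aspartic protease cathepsin E (chromosome 1, 133534891 to 133548122), had 23.5, 27.8, 6.43 and 18.1 (19.0 ± 9.26, SD, n = 4) and 0.0505, a log2 difference of 3.79 (SE 1.07, limma adjusted p = 0.143), the smallest adjusted p of any gene higher in the pulldowns. Single-end values of Ctse were low, at 0.511, 1.72, 1.48 and 0.0505 in the pulldowns and 0 in the supernatant. Trp53inp1, which p53 induces under stress (chromosome 4, 11083588 to 11101524), had 34.7, 109, 0.827 and 1.5 and was listed at 0 in the supernatant of both runs. Both home cage pulldowns were above both fear conditioned ones for Trp53inp1, and home cage pulldown 2 was the highest library for Mdm2 and Ctse.

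Malat1, a long noncoding RNA that stays in the nucleus (chromosome 19, 5795690 to 5802671), was the most abundant of the 10. It had 729, 766, 1399 and 276 in the pulldowns (792 ± 462, SD, n = 4) and 81.4 in the supernatant, a log2 difference of 2.81 (SE 1.41, limma adjusted p = 0.792). All 4 pulldowns were above the supernatant in the single-end run too, at 349, 222, 465 and 153 against 46.1. A130040M12Rik, a noncoding transcript (chromosome 13, 62184507 to 62397530), had 32.2, 41.0, 14.8 and 4.92 (23.2 ± 16.4, SD, n = 4) against 0.237, and in the single-end run 340, 1200, 843 and 35.0 against 0.914. Arhgap11a, a GTPase activator (chromosome 2, 113671650 to 113688818), had 2.92, 24.4, 33.1 and 4.73 and was listed at 0 in the supernatant. The lowest pulldown, home cage 1, rested on an estimated 74 fragments.

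The other 4 of the 10 genes were Rpl36, Gnb2l1, Eprs and Eef2. Rpl36, a protein of the large ribosomal subunit (chromosome 17, 56752818 to 56753669), had 23.9, 43.9, 17.8 and 4.47 (22.5 ± 16.4, SD, n = 4) against 0.598. Gnb2l1, the scaffold RACK1 of the small subunit (chromosome 11, 48613862 to 48619743), had 73.6, 163, 10.9 and 1.40 (62.3 ± 74.6, SD, n = 4) against 0.359. Eprs, the synthetase that charges tRNA with glutamate and proline (chromosome 1, 187186974 to 187233630), had 6.26, 27.0, 8.79 and 2.04 (11 ± 11, SD, n = 4) against 0.233. Eef2, the elongation factor that moves the ribosome along the mRNA (chromosome 10, 80639376 to 80645254), had 435, 407, 17.4 and 21.6 (220.2 ± 232, SD, n = 4) against 5.34. Fear conditioned pulldown 2, the library with the same name as the supernatant, was the lowest pulldown for Rpl36, Gnb2l1 and Eprs. The log2 differences were 3.30 (SE 1.47), 3.13 (SE 1.64), 2.66 (SE 1.17) and 2.64 (SE 1.75), none past the limma threshold (adjusted p 0.649, 0.869, 0.623 and 0.997).

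**Figure D3:**
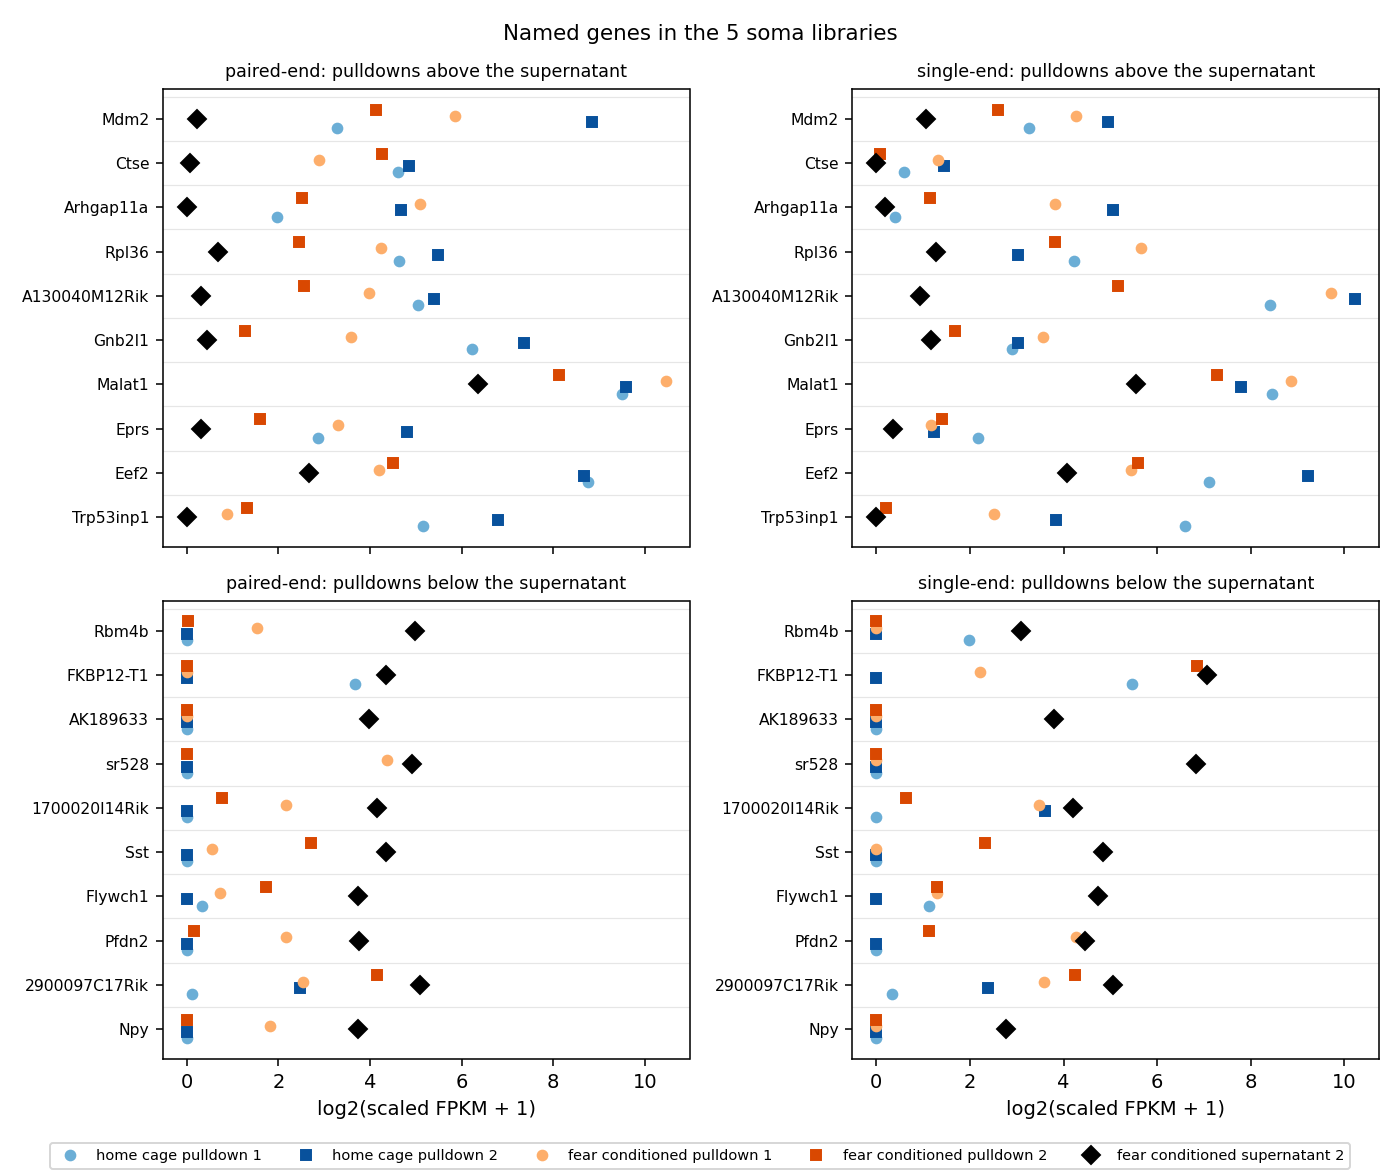
log2(scaled FPKM + 1) of the 20 named genes (vertical axis) in the 4 soma pulldowns and the soma supernatant, 1 symbol per library, in the paired-end (left) and single-end run (right). Upper panels show the 10 genes with every pulldown above the supernatant, such as Malat1 (supernatant 81.4, lowest pulldown 276), and lower panels the 10 with every pulldown below it, such as Sst (supernatant 19.3, highest pulldown 5.57).

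On the other side, 30 genes met the conditions for being named, and the 10 with the largest fitted difference follow. None passed the limma test. For Rbm4b, Npy, Flywch1, Pfdn2 and AK189633 the mean of the pulldowns was under 1. These genes reached the expression minimum only through the supernatant and had to be lower, so their values are no support for a difference between the fractions. Rbm4b, an RNA-binding splicing regulator (chromosome 19, 4790068 to 4811634), had 6.28e-06, 0, 1.9 and 0.0233 in the pulldowns (0.481 ± 0.946, SD, n = 4) and 30.8 in the supernatant, a log2 difference of -4.18 (SE 0.94, limma adjusted p = 0.0528). Flywch1, a zinc finger protein (chromosome 17, 23889764 to 23900285), had 0.257, 0, 0.641 and 2.33 (0.807 ± 1.05, SD, n = 4) against 12.3, and Pfdn2, a subunit of the chaperone prefoldin (chromosome 1, 173275830 to 173288301), 0, 0, 3.47 and 0.110 against 12.5. The log2 differences were -2.69 (SE 0.82) and -2.56 (SE 1.13), with limma adjusted p of 0.205 and 0.621. Sst and Npy, given above, are also among the 10.

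The remaining 5 are noncoding or poorly resolved rows. 1700020I14Rik, a noncoding transcript (chromosome 2, 119420029 to 119426480), had 0, 0, 3.46 and 0.691 against 16.9, and 2900097C17Rik, another (chromosome 2, 156213799 to 156218715), 0.0836, 4.54, 4.78 and 16.7 against 33.1. sr528 (chromosome 7, 140175514 to 140177093) had 0, 0, 19.6 and 0 against 29.3; it is measured over 201 bases, and 58.7% of them lie in exons of Zranb1. AK189633 and FKBP12-T1 share most of their bases with another row. AK189633 (chromosome 17, 29469023 to 29469687) was at 14.6 in the supernatant and at 0, or at a value too small to stand for a fragment, in all 4 pulldowns. AK198904, which covers 85.6% of its bases, was at 0, 0, 12 and 15.7 in the pulldowns and at a vanishing value in the supernatant; both rows summed to 15.7 in fear conditioned pulldown 2 and 14.6 in the supernatant of that name, a log2 difference of 0.09 in place of -3.97. FKBP12-T1 (chromosome 2, 151368235 to 151370413) shares 63.4% of its bases with Fkbp1a, the gene of the immunophilin FKBP12. It had 11.7, 0, 3.5e-07 and 6.31e-08 in the pulldowns and 19.2 in the supernatant, and summed with Fkbp1a 21.9 in fear conditioned pulldown 2 and 36.8 in the supernatant, a log2 difference of -0.72 in place of -4.34. Over the mean of the 4 pulldowns the difference went from -3.97 to -2.03 for AK189633 and from -3.42 to -2.88 for FKBP12-T1 on summing, a smaller move than in the pair. Summing sr528 with Zranb1 left its pair difference at -4.93 in place of -4.92.

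The mRNAs for proteins of the large ribosomal subunit stood above the supernatant in 15 of 42 cases, with no single member past the test. Of 42 tested members of 47, 15 (35.7%) were above the supernatant in all 4 pulldowns by any amount, against 4.97% of all tested genes, and 3 (7.14%) below, against 21.3%; in both runs these were 7 (16.7% against 1.53%) and 1 (2.38% against 9.39%). Those above included Rplp0, Rplp1, Rpl8, Rpl10, Rpl10a, Rpl13a, Rpl15, Rpl19, Rpl22, Rpl27, Rpl35, Rpl36, Rpl37 and Rpl41, and the 3 below were Rpl5, Rpl26 and Rpl35a. With the FPKM as deposited 17 of 42 were above (40.5%, against 3.52% of all genes tested there) and 3 below (7.14%, against 13.5%). With equal sums 10 of 44 were above (22.7%, against 2.6%) and 7 below (15.9%, against 36%). From the single-end values 14 of 44 were above (31.8%, against 3.14%) and 1 below (2.27%, against 24%). A gene listed at 0 in a pulldown cannot be above in all 4. In paired-end home cage pulldowns 1 and 2, 10 and 2 of the 47 members were at 0, against 36.9% and 48.5% of all tested genes. The shares of all tested genes were not matched to the list for level. The fitted difference was positive for 34 members and negative for 8, with a median of 0.52 against 0.10 over all tested genes, and limma called 0 higher and 0 lower.

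Rpl27 had the most even values of the 4 members named here after their values were seen, at 29.8, 9.56, 19.4 and 27.9 in the pulldowns (21.7 ± 9.26, SD, n = 4) and 3.72 in the supernatant. Its single-end values were 15.2, 15.8, 27.1 and 16.2 against 4.74, so that no library of either run overlapped the supernatant. Rpl13a had 12.5, 4.99, 1.44 and 2.64 against 0.0722, and 104, 78.2, 17.4 and 53.0 against 4.12 in the single-end run. Rpl35a lay on the other side, at 0, 0, 0.818 and 0.681 against 4.15, and was listed at 0 in all 4 single-end pulldowns against 3.94. Rpl26 was below in every pulldown of the paired-end run (1.20 to 2.88 against 11.3) and above in every pulldown of the single-end run (17.3 to 133 against 15.2).

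The most abundant members were set by single libraries. Rpl41 had 187, 1317, 133 and 38.9 in the pulldowns and 30.7 in the supernatant, Rpl10 299, 29.0, 14.4 and 12.1 against 6.67, and Rpl4 5.76, 126, 43.8 and 26.2 against 7.28. Home cage pulldown 2 held the most Rpl41 and Rpl4, home cage pulldown 1 the most Rpl10. Rpl32 was at 301 in home cage pulldown 2, 0 in home cage pulldown 1, 5.78 and 0.317 in the fear conditioned pulldowns and 2.51 in the supernatant. The median difference of the list was 0.53 and 2.42 in home cage pulldowns 1 and 2 and 0.14 and 0.09 in fear conditioned pulldowns 1 and 2, against -0.62, -0.77, -0.16 and -0.08 over all tested genes. Many ribosomal protein genes have near-identical processed copies, which the counting can confuse with the gene, so these values are uncertain for the single gene.

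The small subunit list rested more on home cage pulldown 2. Of 29 tested members of 32, 22 had a positive fitted difference (median 0.68), but 2, Rps12 and Rps29, were above the supernatant in all 4 pulldowns (6.9%, against 4.97% of all tested genes) and 1, Rps4x, below (3.45%, against 21.3%). From the single-end values 9 of 30 (30%, against 3.14%) were above in all 4 and 2 (6.67%, against 24%) below. Rpsa, which also serves as a laminin receptor, had 1967, 101415, 657 and 163 in the pulldowns and 303 in the supernatant, below the supernatant in fear conditioned pulldown 2. Rps25 had 4.57, 785, 12.2 and 5.94 against 17.9, and Rps3a 4.51, 384, 82.4 and 4.88 against 16.6. Rps2 had 6.25, 223, 6.08 and 2.76 against 17.9, but 0 or near 0 in all 5 single-end libraries. For Rps25 and Rps2 home cage pulldown 2 was the only pulldown above the supernatant. The median of the list was 3.57 in home cage pulldown 2, -0.61 and 0.17 in home cage pulldown 1 and fear conditioned pulldown 1, and -0.62 in fear conditioned pulldown 2.

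Among 24 tested translation factors, 11 had a positive and 13 a negative fitted difference (median -0.03). Eef2, Eif4a1, Eif4b and Pabpc1 were above the supernatant in all 4 pulldowns (16.7%, against 4.97% of all tested genes), and Eif4a2 and Eif4e below (8.33%, against 21.3%); in both runs there was 1 on each side (4.17% each). Eif4b, a cofactor of the helicase that prepares mRNA for the ribosome, had 20.9, 90.1, 6.88 and 9.63 against 3.62. Eif4a2, a form of that helicase, had 0.190, 0.443, 8.13 and 7.74 (4.13 ± 4.40, SD, n = 4) against 15.7, while Eif4a1 had 3.06, 2.05, 0.925 and 1.17 (1.80 ± 0.968, SD, n = 4) against 0.559. The forms thus lay on opposite sides of the supernatant in all 4 paired-end pulldowns; in the single-end run Eif4a2 was again below in all 4 (at most 6.08 against 27.2) and Eif4a1 was above in 3 of 4. Eef1a1, the factor that brings tRNA to the ribosome, had 118, 626, 187 and 115 against 119, and Eif1, which helps find the start codon, 0, 96.7, 3.57 and 2.98 against 4.15.

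Long noncoding RNAs are mostly not translated. Of 22 in the list 7 were tested, 5 with a positive and 2 with a negative fitted difference and a median of 1.25 against 0.10 over all tested genes; none passed the limma test. Summed over the 19 with a row, the level was 1387, 773.4, 1516 and 323 in the pulldowns and 112 in the supernatant, and 801.8, 282, 651 and 216 against 112 in the single-end run, all 4 pulldowns above in both runs. Malat1 made up most of each paired-end sum. Snhg11, a host gene of small nucleolar RNAs, had 534, 0, 83.1 and 27.2 against 5, and Meg3, an imprinted transcript of neurons, 91.2, 0, 3.46 and 0.372 against 0.569. Miat, which is nuclear in neurons, had 12.2, 1.53, 22.6 and 3.59 (9.98 ± 9.59, SD, n = 4) against 1.01, above in 4 of 4 pulldowns. In the single-end run Meg3 was above in all 4 pulldowns (16.9 to 180 against 2.52) and Miat in 3 of 4. Relative to the median of all genes, the list's median stayed above 0 with each of the 3 scalings. It was 0.38 in place of 1.25 without home cage pulldown 1, and 0.23 with no expression minimum.

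**Figure D4:**
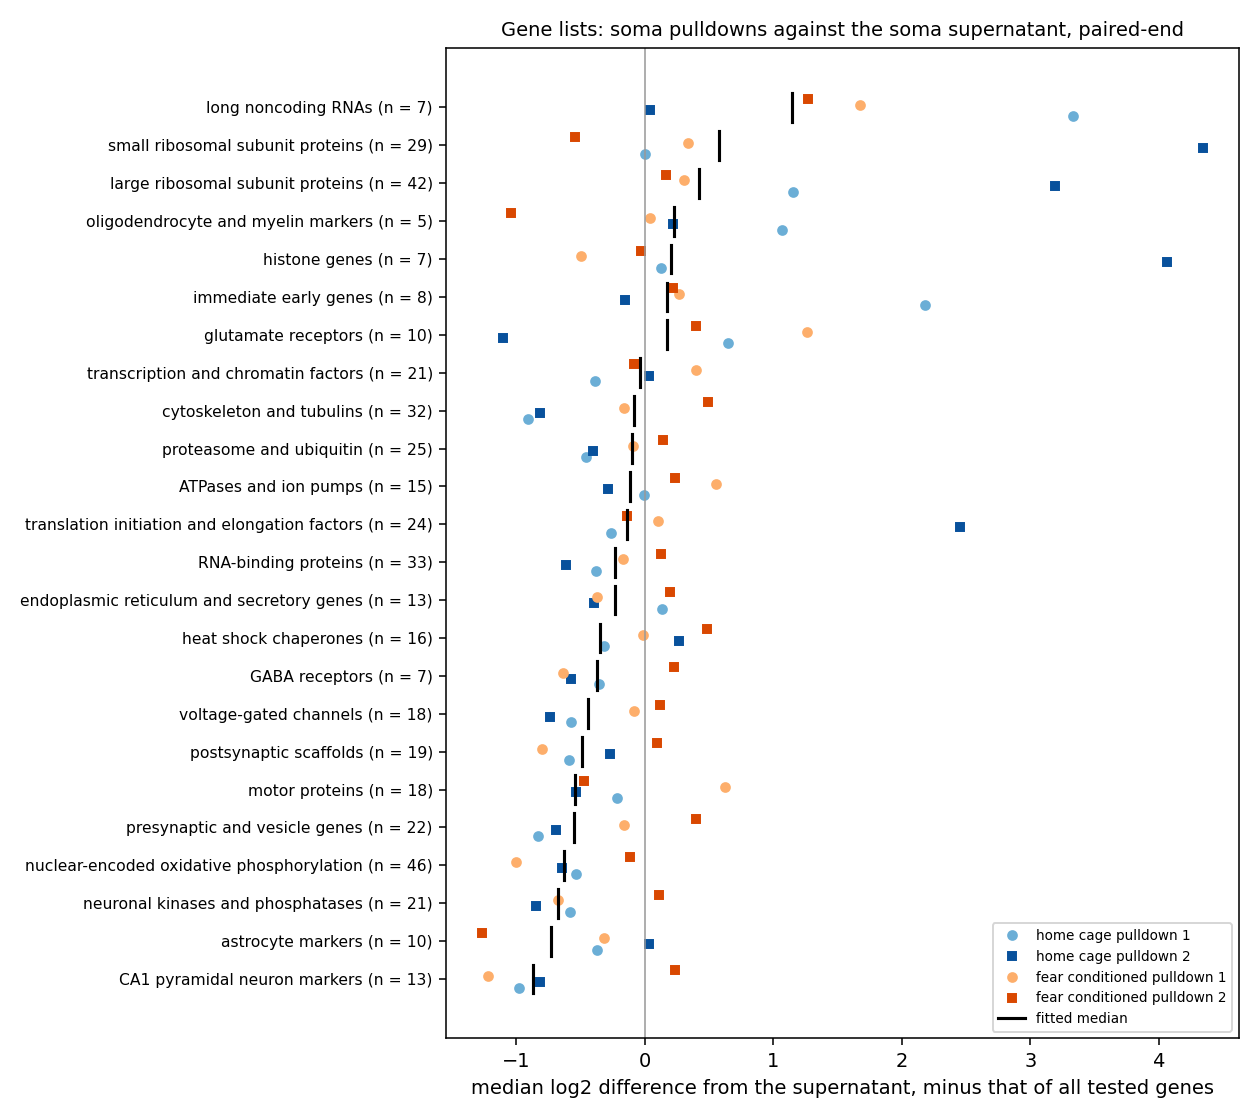
Median log2 difference from the soma supernatant of each gene list with at least 5 tested members (n beside the name), minus the median of all tested genes, in each of the 4 soma pulldowns (symbols) and in the fit (black line), paired-end. Long noncoding RNAs are at the top (fitted 1.14), CA1 pyramidal neuron markers at the bottom (fitted -0.87), and home cage pulldown 2 stands apart for both ribosomal lists.

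No tested respiratory chain gene stood above the supernatant in every pulldown (0%, against 4.97% of all tested genes). The same held for the presynaptic and vesicle genes and for the proteasome and ubiquitin genes, so it is not particular to this list. Of 46 tested nuclear-encoded members of 77, 15 were below the supernatant in all 4 (32.6%, against 21.3% of all tested genes), 6 of them in both runs (13.0% against 9.39%). The median fitted difference was -0.53. It was 0.23 with the FPKM as deposited, where the median of all genes was 0.49, and limma called 0 members higher and 0 lower. Without fear conditioned pulldown 2, 25 members (54.3%, against 32.9%) were below in the other 3. The 15 were Ndufa4, Ndufa8, Ndufa11, Ndufb9, Ndufc2, Ndufv3, Sdhb, Uqcrh, Uqcrb, Cyc1, Cox5b, Atp5c1, Atp5g3, Atp5j and Atp5l, which belong to complexes of the whole chain and to the ATP synthase. Atp5g3, a subunit of the ring of the ATP synthase, had 0, 0.724, 0.15 and 2.17 (0.761 ± 0.990, SD, n = 4) against 6.61. Cyc1, the cytochrome c1, had 0.168, 1.91, 0.135 and 0.599 (0.703 ± 0.832, SD, n = 4) against 1.99. The most abundant members scattered: Cox8a, a subunit of cytochrome oxidase, had 122, 8.62, 1.37 and 30.4 against 35.6, and Sdhc, an anchor of succinate dehydrogenase, 0.0407, 1465, 8.63 and 4.87 against 12.1. Cox7c, another oxidase subunit, had 0, 3.29, 49.9 and 4.45 against 16.7, and Uqcr10, a subunit of complex III, 2.43, 87.6, 0.183 and 5.88 against 1.54. In each of these 4 genes the pulldowns lay on both sides of the supernatant. The mitochondrial transcript Atpase6, which cytosolic ribosomes do not translate, had 12.8, 55.2, 357 and 169 against 194, with 1 pulldown above and 3 below.

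Of 19 tested postsynaptic scaffolds, 6 (31.6%, against 21.3% of all tested genes) were below the supernatant in all 4 pulldowns: Dlgap4, Homer1, Homer2, Ddn, Ppp1r9b and Psd3. None was above (0%, against 4.97%), and 3 were below in both runs (15.8%, against 9.39%). Ddn, the dendritic protein dendrin, had 1.71, 0.810, 1.83 and 0.627 (1.24 ± 0.613, SD, n = 4) against 5.23, and 0.374 to 1.59 against 12.2 in the single-end run. Ppp1r9b, the spine protein spinophilin, had 2.32, 20.2, 15.6 and 7.02 against 31.4 in the paired-end run, but was above in 1 of 4 single-end pulldowns (96.2 in home cage pulldown 2 against 24.4). Shank1, another scaffold, had 17, 123, 4.28 and 3.48 against 4.12. Dlgap1, a scaffold partner of PSD-95, had 23.7, 4.83, 2.11 and 17.6 against 10.3, and Ppp1r9a, neurabin, 12.9, 0, 4.13 and 18.8 against 9.73. Of the vesicle genes, Vamp2, a SNARE of the synaptic vesicle, had 0.304, 1.57, 38.2 and 45.9 against 95.2, and Snap25, its partner in the plasma membrane, 2.57, 19.3, 60.3 and 148 against 143. Vamp2, Snap25 and Syt1, the calcium sensor of release (0, 1.96, 23.9 and 31.3 against 25.3), were each lowest in the home cage pulldowns of the paired-end run. Rab3a, a GTPase of the vesicle, was below the supernatant in all 4 paired-end pulldowns (0.158, 6.83, 16.6 and 14.7 against 17.7). Of the 10 tested glutamate receptor genes, Grin1, the obligatory NMDA receptor subunit, was above the supernatant in all 4 pulldowns (32.3, 6.91, 5.52 and 7.63 against 1.77), in 3 of 4 in the single-end run, and Gria2, an AMPA receptor subunit, was on both sides (13.5, 0.174, 51.9 and 20.9 against 21.3). Cnih2, which escorts AMPA receptors, was below in all 4 (2.88, 0.296, 12.1 and 11.9 against 22.3) but above in fear conditioned pulldown 2 of the single-end run. Grm5, a metabotropic receptor, was above in 3 of 4 (35.2, 0.0704, 15.5 and 15.3 against 5.67).

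Neuronal kinases and phosphatases had 4 positive and 17 negative members of 21 and a median of -0.57. Of these, 7 (33.3%, against 21.3% of all tested genes) were below the supernatant in all 4 pulldowns and 4 (19.0%, against 9.39%) in both runs. None was above (0%, against 4.97%). With the FPKM as deposited 2 of 22 were below (9.09%, against 13.5% of all genes tested there), so the excess did not hold with that scaling. With equal sums 11 of 22 were below (50%, against 36%). Voltage-gated channels had 6 positive and 12 negative members of 18 and a median of -0.34, motor proteins 8 and 10 of 18 and -0.44, and heat shock chaperones 6 and 10 of 16 and -0.24. Kif5a, a kinesin of neuronal transport, was below in all 4 pulldowns of both runs (0.0834 to 1.23 against 5.48, and 0.173 to 5.58 against 11.6). Cytoskeletal genes (17 and 15 of 32), transcription factors (11 and 10 of 21) and RNA-binding proteins (13 and 20 of 33) were divided. All tested genes were divided too, with 1536 positive and 1339 negative of 2875. Srrm2, a splicing protein of nuclear speckles, was above in all 4 pulldowns (30.7, 6.84, 24.2 and 8.70 against 2.28). Of the members of all 33 lists, 1, Psmc4, an ATPase of the proteasome, was among the 89 genes called by limma: 0, 0, 0.107 and 0.456 against 1.89 (log2 difference -1.28, SE 0.26, limma adjusted p = 0.0297). It was at 7.54 in fear conditioned pulldown 2 and 4.92 in the supernatant of the single-end run. The immediate early genes Arc and Fos, which neurons switch on with activity, were low in both fractions: Arc was at 0, 0, 2.1 and 0.854 against 1.00, and Fos was at most 0.250 in a pulldown and 0.0651 in the supernatant.

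The pair of fear conditioned pulldown 2 and supernatant 2 carries the same name and behaviour and comprises the deepest pulldown. This comparison has 1 library a side and no replicate check. Past 2 on the log2 scale, 272 genes (9.46%) were higher in the pulldown and 142 (4.94%) lower in the paired-end run, and 33 (1.15%) and 39 (1.36%) were so in both runs. The median difference of all tested genes was -0.08. By any amount, 1244 of the 2875 tested genes were higher in the paired-end pulldown and 1557 lower, the background for the marker counts that follow. Within the pair, the summed astrocyte and myelin markers were lower in the pulldown in both runs, and CA1 markers were on different sides in each. The 10 oligodendrocyte precursor markers summed to 2.17 in the pulldown and 0.550 in the supernatant, the other order (0.225 and 1.29 in the single-end run). The 22 astrocyte markers summed to 8.64 in the pulldown and 38.4 in the supernatant (25.8 and 98.1 in the single-end run), with 9 of 10 tested members lower and a median of -1.34. The 20 oligodendrocyte and myelin markers summed to 1.35 and 13.0 (5.23 and 38.3), with 4 of 5 tested members lower, none higher and a median of -1.12. The CA1 pyramidal markers summed to 195.6 and 121.4 (329.9 and 370.5), with 7 of 13 tested members higher and a median of 0.16 in the paired-end run and -0.51 in the single-end run. Slc1a2 was at 0.372 and 4.59 (0.281 and 6.35) and Mbp at 0.913 and 5.93 (1.15 and 8.25), each lower in the pulldown of both runs, and Camk2a at 51.5 and 46.0 (71.1 and 61.6). Fear conditioned pulldown 1, from the same behaviour, held the most Aldoc of the 5 paired-end libraries, so the order in the pair did not hold for that library.

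**Figure D5:**
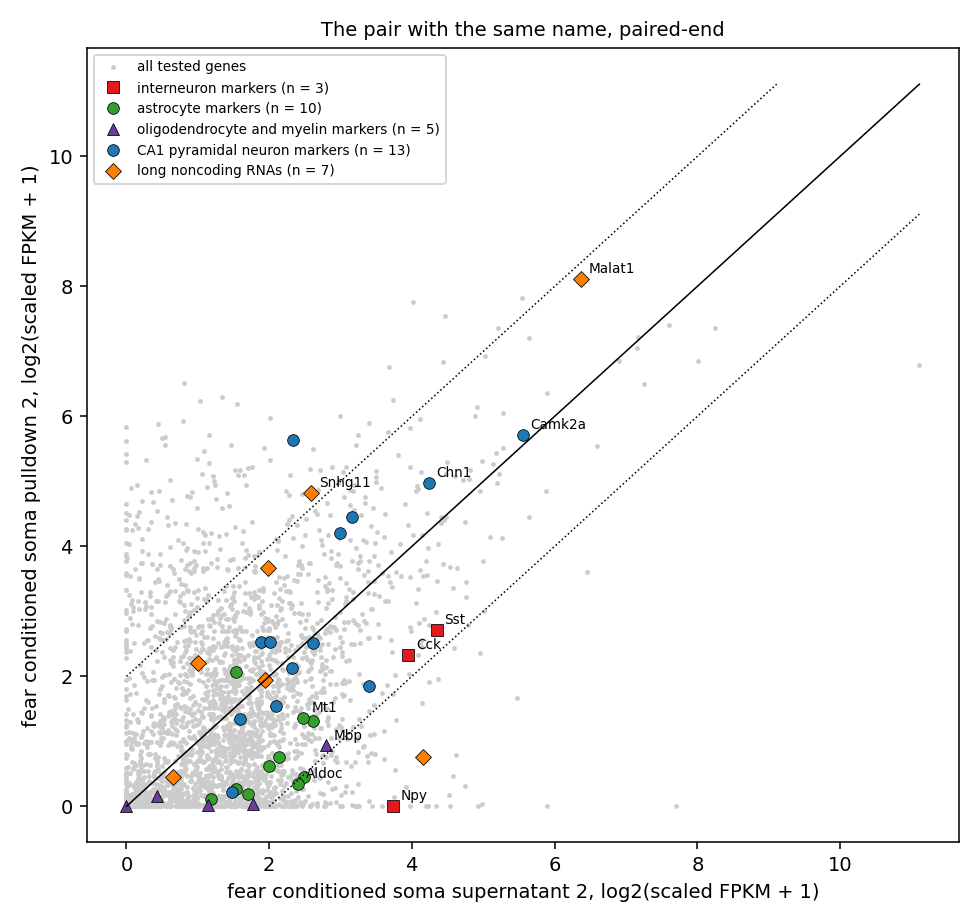
log2(scaled FPKM + 1) of the 2875 tested genes in fear conditioned soma pulldown 2 (vertical axis) against fear conditioned soma supernatant 2 (horizontal axis), paired-end; the solid line marks equal values and the dotted lines a difference of 2. Astrocyte and oligodendrocyte markers lie below the solid line for 9 of 10 and 4 of 5 genes, and CA1 pyramidal markers on both sides (7 of 13 above). Of all tested genes, 1557 lie below the line and 1244 above.

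Of the genes past 2 in both runs, 23 were at 10 or more in the paired-end pulldown and 18 at 10 or more in the paired-end supernatant; those named here were chosen after their values were seen. Nefm, a neurofilament subunit, was at 31.4 in the pulldown and 0.522 in the supernatant (10.7 and 1.49 in the single-end run), a log2 difference of 4.41. Cacnb4, an auxiliary subunit of calcium channels, was at 22.4 and 0.348 (27.0 and 2.48), and Spast, the microtubule-severing enzyme spastin, at 19.3 and 0.0870 (16.5 and 0.280). These 3 genes were at 3.05 or less in the other 3 pulldowns, so the difference did not extend to them. Ncl and Npm1, abundant proteins of the nucleolus, were at 61.9 and 3.04 and at 36.2 and 7.47, with single-end values of 56.6 and 7.25 and of 72.6 and 6.36. Ncl was also high in home cage pulldown 2 (42.3) and fear conditioned pulldown 1 (55.0), but not in home cage pulldown 1 (0.897), and Npm1 likewise (52.3, 19.4 and 0).

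The genes lower in the pulldown of the pair included small noncoding RNAs. Rpph1, the RNA of ribonuclease P, was at 110.2 in the pulldown and 2212 in the supernatant (525 and 23811 in the single-end run) and took 15.0% of the summed FPKM of the paired-end supernatant. It was at 837, 419.7 and 1287 in the other 3 pulldowns, so all 4 were below the supernatant. Snora44, a small nucleolar RNA, was at 0 and 58.6 (0 and 132) but at 397 and 158 in home cage pulldown 1 and fear conditioned pulldown 1. Fth1, the heavy chain of ferritin, was at 11.2 and 86.8 (13.9 and 77.8), and at 387 in home cage pulldown 1. Zbtb20, a transcription factor of hippocampal neurons, was at 1.51 and 12.7 (1.69 and 13.0), with 14.6 and 20.8 in home cage pulldown 2 and fear conditioned pulldown 1. Npy, Pfdn2, Rbm4b and Flywch1 were among the 18 as well. Of the 18 lower genes, 8 (44.4%) had no coding sequence in the annotation and 6 (33.3%) covered at most 300 bases, against 5.84% and 1.91% of all tested genes; of the 23 higher genes there were 2 (8.7%) of each.

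Whether the soma difference departed from the dendrite one was tested in the same fit, with 4 dendrite pulldowns and 2 dendrite supernatants. limma called 51 genes (1.77%) with a lower soma difference than dendrite difference and 0 (0%) with a higher one; of both directions, 130 genes had an unadjusted p under 0.05. All 51 were among the 89 genes that entered the test through the soma supernatant, so the contrast restates that 1 library and shows no difference between soma and dendrite beyond it. For 22 of them the supernatant was above all 4 pulldowns in the single-end run. The 5 with the largest value had 1 high library, the soma supernatant. Nup188 (chromosome 2, 30141953 to 30199782) was at 17.4 there and at 0, 0.506, 0.0301 and 0 in the soma pulldowns, 0 to 0.917 in the dendrite pulldowns and 0.0182 and 0.0179 in the dendrite supernatants, a difference of the contrasts of -4.52 (SE 0.74, limma adjusted p = 0.0126). Its single-end supernatant value was 0.05 and the pulldowns reached 1.98. Inhba (chromosome 13, 16106284 to 16119044) was at 14.2 there and at most 0.389 in the other 10 libraries (-3.53, SE 0.44, limma adjusted p = 0.00227), but at 13.7 in fear conditioned pulldown 2 and 1.08 in the supernatant of the single-end run. Arfrp1, a small GTPase of the Golgi (chromosome 2, 181092395 to 181100109), was at 9.60 there and at most 0.25 in the others (-3.33, SE 0.36, limma adjusted p = 0.00124), and at 0.531 in the single-end supernatant. AK189601 (chromosome 14, 44291533 to 44291931) and AK181830 (chromosome 19, 4907406 to 4907732), noncoding rows of 201 bases, were at 10.9 and 8.38 there and at 0 in the other 10 libraries, with values of -3.57 (SE 0.28) and -3.23 (SE 0.26) and a limma adjusted p of 0.000271 each. AK181830 was at 17.9 in the single-end soma supernatant and 0 in the 4 pulldowns, and AK189601 was at 0 in all 5.

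For the genes above the supernatant in the soma, the dendrite contrast of the same fit was of like size in several cases and no difference of the contrasts passed. Mdm2 had a dendrite difference of 4.81 against 4.76 in the soma, Ctse 3.44 against 3.79, A130040M12Rik 4.00 against 3.14, Malat1 2.16 against 2.81 and Eef2 2.01 against 2.64. Rpl36 had 0.08 against 3.30 and Eprs -0.11 against 2.66, differences of the contrasts of 3.22 (SE 1.84) and 2.77 (SE 1.46) with a limma adjusted p of 1 each. Soma and dendrite libraries were dissected and pulled down separately, and the contrasts compare different libraries. The behaviour term and the spread were fitted over all 11 libraries, so the contrasts are not independent of each other. Npy, an interneuron transcript, had a dendrite difference of -2.59 against -2.42 in the soma.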

How the data were processed

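RNA was measured by sequencing in 11 CA1 libraries, each run paired-end and single-end. Per the labels' protocols, cDNA was made with the Nugen Ovation RNA-Seq V2 system, treated with single strand nuclease, and made into libraries with the TruSeq DNA Kit v2; no molecular identifiers are named, so counting error covers reads, not molecules. The deposited values are FPKM per gene and transcript part that the authors made; Cufflinks 2.0.2, STAR 2.1.1d, CASAVA 1.9 and the build mm9 stand in the submitters' processing notes. The handling of strand and of multi-mapped reads is not stated in any label or header, so overlapping, antisense and near-identical genes cannot be told apart. Coordinates are those of the deposited mm9 annotation, counted from 1.

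From the FPKM of the coding part, 1 factor per library was taken as the median of its ratios to the genes' geometric means, over the 765 genes above 0 in all 11 paired-end libraries (414 single-end). Differences were taken on log2(scaled FPKM + 1). limma 3.58.1 (R 4.3.3) fitted location and fraction with behaviour as a covariate over the 11 paired-end libraries, with trended moderation, 6 residual degrees of freedom and Benjamini-Hochberg adjustment, at a threshold of 0.05. Both runs of a library count as 1 replicate, and an exact test of 4 pulldowns against 1 supernatant cannot go below 0.2. Fragments were estimated from the steps between low FPKM values. On simulated data for the soma contrast (2875 genes), limma recovered 0% of changes of 2, 6.5% of changes of 4 and 65% of changes of 6 on the log2 scale. These changes were increases in the pulldowns. Among the real genes, limma called smaller differences, such as -1.28 for Psmc4 and -1.98 for Crebl2, which was listed at 0 in all 4 pulldowns. The shares therefore do not describe such genes, and the recovery of decreases was not tested.

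Named genes are, per direction, the 10 with the largest fitted difference among genes at 10 or more on the higher side and with all 4 pulldowns on that side in both runs; the 4 most abundant tested members of each list described; 18 marker genes; and the 5 largest soma-minus-dendrite differences past the threshold. No gene with a larger soma than dendrite difference met the conditions. Other names were chosen after their values were seen. Some genes of these lists are not reported here by name; they stay in the list sums and counts. The members and the 33 gene lists (867 of 908 symbols have a row) were chosen with earlier results of these data known. The alternatives tried were other pseudocounts, minimums, scalings, transcript part, run and designs, and leaving out libraries.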

Additional observations from a re-analysis of the deposited data

Results flagged for a closer look

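In 7 of the 36 named genes and markers screened, 1 of the 4 soma pulldowns stood apart from the other 3 by Dixon's criterion at 95%. For normal values chance alone meets it in about 1 of 20 groups. These values have a floor at 0, where a single library above 0 meets the criterion by itself, so the 7 cannot be set against that rate. Fear conditioned pulldown 1 was the high library for Rbm4b (1.9 scaled FPKM), sr528 (19.6), Pfdn2 (3.47), Npy (2.53) and C1qa (0.0402). Home cage pulldown 1 was the high library for FKBP12-T1 (11.7), and fear conditioned pulldown 2 for Fos (0.250). In each case the other 3 pulldowns were at or near 0.

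The soma contrast differed from the dendrite contrast, by limma's test of that difference, for Nup188 (-4.52), AK189601 (-3.57), Inhba (-3.53), Arfrp1 (-3.33) and AK181830 (-3.23). These genes entered the test only through the soma supernatant, so the values restate that 1 high library. The single-end supernatant was above the 4 single-end pulldowns for Arfrp1 and AK181830, and not for Nup188, AK189601 and Inhba.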

How the results depend on the processing

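The limits of the comparison are its 1 supernatant library, the pulldowns' zeros and the scaling. The count called lower by limma was 89; it was 32 with a pseudocount of 0.1, 152 with a pseudocount of 5, 986 with no expression minimum, 0 with a minimum of 5, 43 with the FPKM as deposited, 276 with equal sums, 140 in the single-end table and 167 in a fit of the 5 soma libraries alone. The soma-minus-dendrite count was 51; it was 15, 89, 669, 0, 22 and 114 under the first 6 of these settings and 80 with the values of the remaining 3′ UTR. Genes called higher numbered 0 under each setting except without both home cage pulldowns (chosen after seeing the data), where they numbered 4 (Khdrbs2, AK198904, Gm10012 and AK078979), which the fear conditioned pulldowns alone brought into the test; they are no support for a difference. All 4 pulldowns were above for 24 genes; 65 and 5 with pseudocounts of 0.1 and 5, and 13 with equal sums. They were below for 272; 54 with a pseudocount of 5, 30 with a minimum of 5, 178 as deposited, 615 with equal sums and 494 in the single-end table. Without both home cage pulldowns these counts were 228 and 474. Genes past 2 in the fear conditioned pair numbered 272 higher and 142 lower; higher 435, 85, 81 and 710 with a pseudocount of 0.1, a pseudocount of 5, a minimum of 5 and as deposited, and lower 585, 15, 54 and 83 there, 344 with equal sums and 314 in the single-end table. Leaving out 1 pulldown gave 83 to 104 called lower, 42 to 56 all above, 324 to 433 all below and 50 to 55 for soma minus dendrite. In the single-end table the difference of Inhba reversed to 0.56 and its soma-minus-dendrite value to 0.67; the cause was not tested.

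Replicate numbers are shared between groups, and the labels do not say whether same-numbered libraries share animals. Deviations of same-numbered soma and dendrite libraries correlated at -0.005 (home cage) and 0.062 (fear conditioned). In libraries this sparse, such values cannot show whether the libraries share a source, and the check did not cover the fear conditioned pair of pulldown and supernatant. With the replicate block 55 genes were called lower and 40 for soma minus dendrite.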
